A study of Mus musculus and Homo sapiens with 12 samples.

Results

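The genes described here encode the proteins of the cytosolic ribosome. Members were taken by symbol from the annotation: protein-coding autosomal genes named RPL or RPS with digits, together with RPSA, RPLP0, RPLP1 and RPLP2, without the RPS6K kinases, read-through genes and pseudogenes. The rule found 81 of 19111 autosomal coding genes in the human annotation (GENCODE 44, GRCh38) and 80 of 20665 in the mouse annotation (RefSeq, GRCm38). The human members are 73 genes that encode a standard ribosomal protein (43 of the large and 30 of the small subunit) and 8 paralogs. The mouse members are 72 such genes (43 and 29) and 8 paralogs. X-linked ribosomal protein genes lie outside the rule.

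A cytosolic ribosome is built from ribosomal RNA and one or a few copies of each of these proteins, so that the genes are transcribed strongly and together in growing cells, including those of the intestinal crypt. Most of them are short, have a promoter without a strong TATA box and start transcription at a C within a run of pyrimidines. This start is the terminal oligopyrimidine tract, through which the mTOR pathway controls the translation of their mRNAs. Acylation of histone lysines such as H3K18 and H4K12 is found at the starts of active genes, and butyrate is both a source of butyryl groups and an inhibitor of histone deacetylases.

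CUT&Tag, which tethers a transposase to chromatin through an antibody, was performed on 12 libraries, 2 replicates in each of 6 groups. CCD841, a line derived from the epithelium of a normal human colon, was treated with 1 mM sodium butyrate (NaBu) for 12 to 16 h and profiled for H3K18bu and H4K12bu; no untreated CCD841 library was analysed here. Large intestine of male CETP-ApoB-100 transgenic mice was profiled for H3K18bu and H4K12bu on a high fat, high sucrose diet with 5% arabinoxylan, a fermentable dietary fibre, and for H3K18ac and H4K12ac on the high fat, high sucrose diet by the labels. All mice carried the transgenes, their age is not given in the sources used here, and in these mice the acyl group and the diet cannot be told apart. The study's methods once call the animals ApoE-deficient and describe arabinoxylan for the whole high fat, high sucrose group. The other group in those methods stayed on a low fat control diet, so the diet given here for the Kac libraries rests on the labels alone. Nothing used here says which replicates came from which animal or culture, so p-values measure the spread between these libraries.

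The files are peak lists, and they differ in depth. The CCD841 and mouse Kac lists held 299296 to 299861 peaks, close to the limit of 300000 peaks per list. The mouse Kbu lists held 50675 to 96432. Weaker peaks may thus have been cut from the CCD841 and Kac lists, and the lowest values listed are not on 1 threshold across libraries. A gene without a region lacked one among the listed peaks only. In each list, overlapping peaks were merged into regions, and the number of read ends over a summit (the pileup) was computed by inverting the peak caller's fold and −log10 p together. For CCD841, the median pileup over all peaks before merging was 15 and 12 (H3K18bu) and 15 and 7 (H4K12bu). For mouse it was 1 in both replicates of mouse H3K18bu, H4K12bu and H3K18ac, and 1 and 2 in mouse H4K12ac. In CCD841 H4K12bu replicate 2, 54.7% of the regions had q below 0.05, against 100% in the other CCD841 libraries. In the mouse Kbu lists, 1.47% to 2.33% of regions had it, and in the mouse Kac lists 4.96% to 20.0%. A mouse Kbu region at a single gene therefore usually rests on 1 read end. In bulk samples, more cells with a mark and more of the mark per cell cannot be told apart.

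The labelled cell types were checked at markers. In CCD841 cells, 1 of 13 colon epithelial markers, VIL1, had an H3K18bu region within 1 kb of its start in both replicates, and EPCAM, CDH1, KRT19, KRT20, CDX1 and CDX2 had no region of either mark within 1 kb of the start in any of the 4 libraries. Of 12 fibroblast markers, 5 had H3K18bu in both replicates (S100A4, FN1, COL6A3, TWIST1 and COL1A2), and VIM, THY1, DCN and PDGFRB had no region at the start in any library. In 1 H3K18bu replicate alone, KRT8, KRT18, LGALS4, CLDN4 and CDH17 of the epithelial list and LUM, COL1A1 and COL3A1 of the fibroblast list had one. H4K12bu was at the start of 2 of the 13 epithelial markers in both replicates, KRT8 and KRT18, and of 2 of the 12 fibroblast markers, S100A4 and COL1A2. Regions elsewhere in the gene were common, and 10 of the 13 epithelial and 11 of the 12 fibroblast markers had H3K18bu at any place in both replicates. In mouse intestine, 10 of 13 epithelial markers had H3K18bu within 1 kb of a gene end in both replicates, and 0 of 8 smooth muscle and 0 of 8 immune markers did. H4K12bu marked 7, 0 and 0 of these lists, H3K18ac 9, 3 and 2, and H4K12ac 5, 3 and 1. Of 6 markers of enteric neurons and glia, 1 had H3K18bu, 0 had H4K12bu, 2 had H3K18ac and 2 had H4K12ac. The shares of other coding genes at a gene end were 12.6% (H3K18bu), 25.1% (H4K12bu), 40.7% (H3K18ac) and 43.3% (H4K12ac). The part of cell composition in the results below was not tested.

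In CCD841 cells, H3K18bu lay at the starts of a larger share of ribosomal protein genes than of other genes. Within 1 kb of the annotated start, 42 of 81 members had a region in replicate 1 and 51 in replicate 2, that is 51.9% and 63.0%, beside 41.2% and 46.6% of the other coding genes. The members' share exceeded that of the other coding genes in both replicates. In both replicates at once, 35 members (43.2%) had a region, where 33.5% of 19030 other autosomal coding genes did. Among other coding genes whose length lay within that of the members, the share was 31.9%. This range ran from 772 to 80356 bp, so length was not matched. With a window of 3 kb the shares were closer, at 46.9% and 44.5%. Genes are not replicates, and with 2 libraries no test of this difference was made. Large and small subunit genes were alike in this count, with 18 of 43 (41.9%) and 13 of 30 (43.3%), and 4 of the 8 paralogs had a region. A further 7 members had H3K18bu in replicate 1 only and 16 in replicate 2 only.

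The share of members with a region was larger, but the regions were not stronger. At members with H3K18bu, the median fold over the local background was 5.20 and 4.69 in the replicates, beside 5.09 and 4.72 at other coding genes with a region. The median pileup at members was 12 and 10 read ends, beside 14 and 11. The lowest folds were 4.05 and 3.75 and the highest 9.94 and 11.2. Across the 35 members with a region in both replicates, Spearman's correlation of the fold between replicates was 0.55, a description over genes of the same 2 libraries. For H4K12bu it was 0.10 over 12 members, so the order of H4K12bu folds among members was not shared by the replicates.

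**Figure D1:**
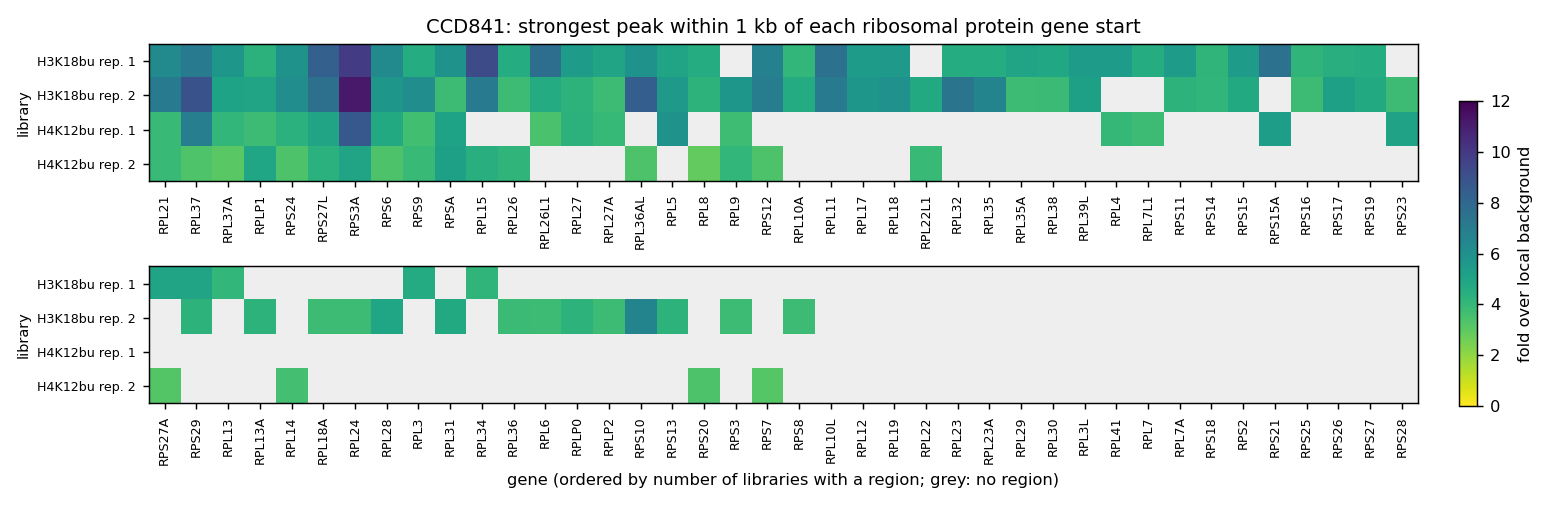
Fold over the local background of the strongest peak within 1 kb of the annotated start, for 80 of the 81 ribosomal protein genes (columns) in 4 CCD841 libraries (rows); grey means no region. RPS3A is the darkest column, 10 members are coloured in all 4 libraries, and 19 are grey throughout.

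RPS3A, a small subunit protein, carried the strongest H3K18bu among the members. H3K18bu reached folds of 9.94 and 11.2 there and H4K12bu reached 8.68 and 4.97, and the pileups were 27, 29, 22 and 8 read ends. The summits of the 4 peaks lay at -203, -200, -200 and -192 bp from the canonical start, that of the transcript the annotation ranks first (negative values lie upstream). All 4 libraries were thus high at this gene, at nearly one position. RPS27L, a paralog of RPS27, had folds of 8.32 and 7.55 for H3K18bu and of 4.97 and 4.35 for H4K12bu. RPL37, a small zinc-binding protein of the large subunit, had 7.04 and 8.96 for H3K18bu and 6.87 and 3.30 for H4K12bu. RPS12, a small subunit protein, had H3K18bu folds of 6.73 and 6.95, no region in H4K12bu replicate 1 and a fold of 3.35 in replicate 2. In each of these 3 genes, every H3K18bu fold was above every H4K12bu fold.

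At the start, H4K12bu reached fewer members than H3K18bu did, and its share lay on either side of that of other genes, depending on the start that was used. Of 81 members, 20 and 22 had a region at the start in the replicates (24.7% and 27.2%, beside 28.4% and 27.8% of other coding genes). In both replicates at once 12 members had one (14.8%), beside 16.7% of the other coding genes. By the canonical start the order turned: 16 members (19.8%) had H4K12bu in both replicates, beside 17.1%. Taken singly, replicate 1 stayed below other coding genes there (28.4%, beside 29.0%) and replicate 2 lay above them (33.3%, beside 28.3%). Of the 12 members by the annotated start, 8 had q below 0.05 in both libraries. In H4K12bu replicate 2, 12 of the 22 members with a region had q below 0.05, and the median pileup there was 6 read ends. RPSA, which encodes a small subunit protein that also serves as a laminin receptor, had the highest H4K12bu value among members by the lower of the replicates. Its folds were 5.06 and 5.19 for H4K12bu and 5.82 and 3.77 for H3K18bu. RPLP1, an acidic protein of the ribosomal stalk, had 3.79 and 4.89 for H4K12bu and 4.27 and 4.97 for H3K18bu, so that both marks lay in 1 narrow range there. RPL21, of the large subunit, had 3.93 and 3.92 for H4K12bu and 6.24 and 7.08 for H3K18bu, the H3K18bu folds being the higher in both replicates.

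The overlap of the marks at members was near that at other genes. Of the 12 members with H4K12bu in both replicates, 10 also had H3K18bu in both (83.3% of the H4K12bu list and 28.6% of the H3K18bu list), namely RPSA, RPS3A, RPS6, RPS9, RPS24, RPS27L, RPL21, RPL37, RPL37A and RPLP1. Among other coding genes the same shares were 75.4% and 37.7%. RPL9 was in the H4K12bu list without being in the H3K18bu list. RPS6, the small subunit protein that S6 kinases phosphorylate, had H3K18bu folds of 6.24 and 5.66 and H4K12bu folds of 4.71 and 3.36, with summits at -138, -122, -151 and -116 bp.

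The members also differed from other genes in where the regions lay. Regions at members sat in a narrow band just upstream of the canonical start. In the bin from 100 bp upstream to the start, 50.6% and 53.1% of members had an H3K18bu region in the replicates, beside 30.6% and 34.8% of other coding genes. From 500 to 1500 bp downstream, the mean share per bin was 0.247% and 0.370% of members, beside 3.81% and 3.96% of other coding genes. The members thus had the larger share at the start and the smaller one downstream in both replicates. Beyond 2 kb on either side the mean was 0.123% and 0.679% of members, beside 2.17% and 2.08%. Of members with a region within 1 kb of the canonical start, 40 of 44 and 45 of 52 had the summit of the strongest region within 300 bp (90.9% and 86.5%), beside 67.8% and 68.3% of other coding genes with a region. The summit lay upstream in 72.7% and 65.4% of these members and in 66.0% and 66.1% of the other genes, so the side differed little. The median position was -129 and -105 bp at members and -72 and -71 bp elsewhere.

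**Figure D2:**
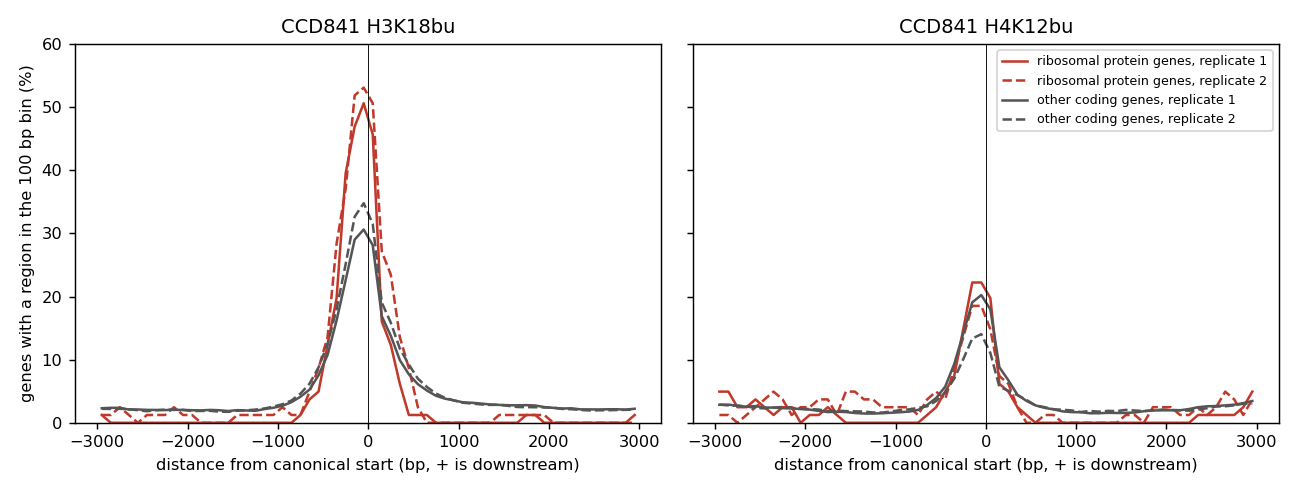
Percent of genes with a region in each 100 bp bin, by distance from the canonical start, for ribosomal protein genes (red, 81) and other coding genes (grey, 19030) in the 2 replicates (solid and dashed) of each CCD841 mark. For H3K18bu the red lines peak at 50.6% and 53.1% just upstream of the start and fall below the grey lines farther downstream.

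H4K12bu regions at members also lay near the start, at lower shares. Its highest bin at members lay between 200 and 100 bp upstream, with 22.2% and 18.5% of members, and the highest bin of other coding genes held 20.2% and 14.04%. From 500 to 1500 bp downstream the mean share per bin was 0% and 0.247% of members, beside 1.86% and 2.05% of other coding genes. Beyond 2 kb the members were close to other genes for this mark, at 2.04% and 2.35%, beside 2.56% and 2.47%. The strongest summit lay within 300 bp in 20 of 23 and 20 of 27 members (87.0% and 74.1%), beside 69.9% and 57.5% of other genes.

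Over the 35 members with H3K18bu in both replicates, the median distance between the strongest summits of the replicates was 36 bp, and 22 (62.9%) lay within 150 bp. At other coding genes the median was 48 bp, and 65.8% lay within 150 bp, so members and other genes were alike here. For H4K12bu the median was 66.5 bp at 12 members and 103 bp at other genes. RPL11, which with RPL5 binds MDM2 outside the ribosome, had H3K18bu summits at -122 and -125 bp with folds of 7.49 and 7.08, and no H4K12bu region. RPL5 had H3K18bu summits at -152 and -159 bp with folds of 4.99 and 5.53, and an H4K12bu summit at -170 bp with a fold of 5.89 in replicate 1 alone. RPL36AL, a near-identical autosomal copy of the X-linked RPL36A, had H3K18bu summits at -140 and -139 bp with folds of 5.82 and 8.42, and an H4K12bu summit at -141 bp in replicate 2. Its start lies within 1 kb of the start of MGAT2, so the region cannot be assigned to one of the genes. At RPL21 the strongest summits lay at -208 and 206 bp, on either side of the start. Of the 81 members, 16 have the start of another coding gene within 1 kb. Of these, 7 had H3K18bu in both replicates (43.8%), beside 28 of the other 65 (43.1%).

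**Figure D3:**
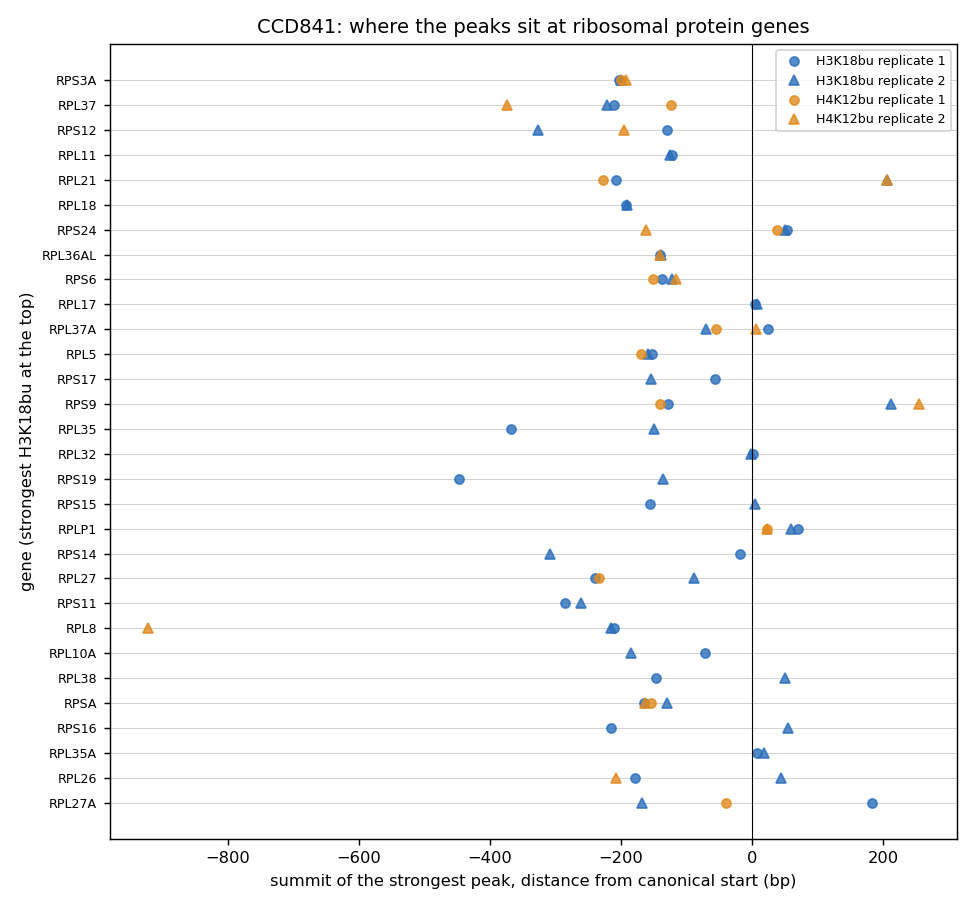
Summit of the strongest peak relative to the canonical start (bp, negative is upstream) for the 30 members with H3K18bu at the start in both replicates and a canonical start within 500 bp of the annotated one; blue is H3K18bu, orange H4K12bu, circles replicate 1, triangles replicate 2. Most points lie upstream of the start, and those of RPS3A fall on one another between -203 and -192 bp.

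The sequences below are the canonical starts of the 7 members with the strongest H3K18bu, the strongest H4K12bu or the strongest regions in all 4 libraries, and of RPS2, a standard small subunit gene with no region in any library. They show the tract that most of these genes share, and mostly lie downstream of the summits given above. Each runs 5′ to 3′ on the gene's strand from 60 bases before the start to 25 bases from it on (GRCh38, 85 bases). Capitals mark the unbroken run of pyrimidines that holds the start base. RPS3A lies on the plus strand at chr4:151099568-151099652, RPL37 on the minus strand at chr5:40835198-40835282, RPS12 on the plus strand at chr6:132814509-132814593, RPSA on the plus strand at chr3:39406660-39406744, RPLP1 on the plus strand at chr15:69452758-69452842, RPL21 on the plus strand at chr13:27251498-27251582, RPS27L on the minus strand at chr15:63157453-63157537 and RPS2 on the minus strand at chr16:1964802-1964886.
RPS3A: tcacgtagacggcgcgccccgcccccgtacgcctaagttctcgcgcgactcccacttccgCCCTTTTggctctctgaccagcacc
RPL37: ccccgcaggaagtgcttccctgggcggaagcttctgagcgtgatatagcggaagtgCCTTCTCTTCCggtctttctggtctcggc
RPS12: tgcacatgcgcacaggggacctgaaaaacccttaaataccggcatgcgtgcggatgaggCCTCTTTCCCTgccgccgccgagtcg
RPSA: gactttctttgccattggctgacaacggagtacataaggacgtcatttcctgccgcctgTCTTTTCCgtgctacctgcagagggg
RPLP1: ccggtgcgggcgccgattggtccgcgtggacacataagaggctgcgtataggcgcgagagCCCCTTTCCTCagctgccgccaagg
RPL21: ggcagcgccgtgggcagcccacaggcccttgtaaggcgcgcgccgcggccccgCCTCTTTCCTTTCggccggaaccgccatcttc
RPS27L: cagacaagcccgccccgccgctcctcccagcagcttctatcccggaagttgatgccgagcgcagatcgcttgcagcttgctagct
RPS2: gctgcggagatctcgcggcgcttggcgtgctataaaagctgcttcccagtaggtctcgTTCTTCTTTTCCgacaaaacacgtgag

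Of the 8 starts, 7 have a C as start base within a pyrimidine run of 7 to 13 bases, and RPS27L, the paralog, starts at a G with no run. RPS2, which had no region, has a run of 12 bases. Over all 81 members, 61 start at a C (75.3%), beside 10.6% of all 19111 coding genes, and 56 (69.1%) have at least 5 pyrimidines from that C on, beside 4.55%. This feature was about as frequent in members with and without the mark. It was present in 26 of the 37 members with H3K18bu at the canonical start in both replicates (70.3%) and in 12 of the 19 with no region there in any library (63.2%).

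Motifs were searched on both strands in the 300 bases from 250 before the canonical start. CCGGAAG, the core that ETS factors bind, was present in 28 of 81 members (34.6%) and in 14.2% of all coding genes. The YY1 motif AAGATGGC was present in 13.6% and 4.05%, and the pyrimidine motif CTCTTTC in 25.9% and 7.28%. The GC box GGGCGG was present in 58.0% and 61.7%, the E-box CACGTG in 7.41% and 8.69%, and TATAAA in 9.88% and 9.74%. Of the 37 members with H3K18bu at the canonical start in both replicates, 12 held CCGGAAG (32.4%), 13 CTCTTTC (35.1%) and 0 TATAAA or CACGTG. Of the 19 members with no region at the canonical start in any library, 7 held CCGGAAG (36.8%), 2 CTCTTTC (10.5%), 4 TATAAA and 4 CACGTG. These are small counts of letters in a window, chosen with the calls known, and a match is not a bound site. In the mouse table of RefSeq promoters (GRCm38), which holds 60 of the 80 members, CCGGAAG was present in 38.3% of members and 12.2% of coding genes. Fewer mouse than human members had the pyrimidine start in these tables: 21 of 60 (35.0%) start at a C, beside 13.8% of mouse coding genes, and 13 (21.7%) have at least 5 pyrimidines from it, beside 2.18%.

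No region of either mark lay within 1 kb of the annotated start in any CCD841 library at 19 members (23.5%), beside 37.9% of other coding genes. At the other end of the count, 10 members (12.3%) and 12.6% of other coding genes had one in all 4 libraries. Of the 19 members with no region, the first 12 in the alphabet were RPL10L, RPL12, RPL19, RPL22, RPL23, RPL23A, RPL29, RPL30, RPL3L, RPL41, RPL7 and RPL7A. The count of members with no region was also 19 at the canonical start (beside 36.4% of other coding genes), but it held other members in part, because the annotated start of 16 members lies more than 500 bp from the canonical one. RPL22, whose annotated start is 9794 bp away, had a region at the canonical start in all 4 libraries, with H3K18bu folds of 4.99 and 4.25. RPL7, with 2156 bp, also had one in all 4, with H3K18bu folds of 6.23 and 7.84. RPL39L and RPS29 were in 2 libraries by the annotated start and in 4 by the canonical one, whereas RPL4 was in 2 libraries and in 0. With both starts considered, 16 members had no region in any library. By the canonical start, 37 members (45.7%) had H3K18bu in both replicates, beside 35.0% of other coding genes.

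The members chosen as anchors for their roles ranged widely. RPS3, at the mRNA entry site, had 1 region, with an H3K18bu fold of 3.75 in replicate 2. RPS2, its neighbour in the small subunit, had none. RPS14, a gene lost in the myelodysplastic syndrome with a deletion on the long arm of its chromosome, had H3K18bu folds of 4.16 and 4.11 and no H4K12bu. RPS19, the gene most often mutated in Diamond-Blackfan anaemia, had H3K18bu folds of 4.58 and 4.72 and no H4K12bu. RPS27A, made as a fusion with ubiquitin, had an H3K18bu fold of 4.99 in replicate 1 and an H4K12bu fold of 3.22 in replicate 2. RPLP0, the base of the stalk, had an H3K18bu fold of 4.25 in replicate 2 alone. RPL3, which reaches the peptidyl transferase centre, had an H3K18bu fold of 4.61 in replicate 1 alone. RPL4, which lines the exit tunnel, had an H3K18bu fold of 5.41 and an H4K12bu fold of 4.03, both in replicate 1 and both about 20 kb from its canonical start.

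The paralogs differed among themselves. RPL26L1, close to RPL26 in sequence, had H3K18bu folds of 7.66 and 4.62, and H4K12bu of 3.45 in replicate 1. RPL22L1, which can replace RPL22, had H3K18bu of 4.72 and H4K12bu of 3.92, each in replicate 2 alone. RPL7L1, which acts in ribosome assembly, had H3K18bu of 4.58 and H4K12bu of 3.79, each in replicate 1 alone. RPL10L, a testis copy without introns, had no region. RPL3L, expressed in muscle, had none at the annotated start and a region in 3 of 4 libraries within 1 kb of the canonical one.

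Inside the gene bodies, the members carried less than other genes. In the body, more than 1 kb from either end, 14 of 81 members had an H3K18bu region in both replicates (17.3%), beside 56.6% of other coding genes. For H4K12bu the count was 26 (32.1%), beside 68.4%. Among genes long enough to have such a body, 77 members and 18039 others, the shares were 18.2% beside 59.7% for H3K18bu and 33.8% beside 72.1% for H4K12bu. Among such other coding genes in the members' range of length, the shares were 49.6% and 64.5%. Their median length was still 20031.5 bp, beside 5643 bp for the 77 members, so length was not matched. Members are short, with a median length of 5548 bp against 28116 bp, and the members with a body region had a median length of 22910 bp for H3K18bu and 18430 bp for H4K12bu. Read-through transcripts lengthen some of them, as for RPL37A, annotated over 80356 bp. Per base, regions covered 1.10% and 1.83% of the members' intron bases in the H3K18bu replicates, beside 2.72% and 2.55% in other coding genes, and 1.66% and 2.62% of the exon bases, beside 3.18% and 3.09%. For H4K12bu the intron values were 1.39% and 1.43%, beside 3.65% and 2.57%, and the exon values 3.45% and 2.83%, beside 6.13% and 3.52%. The members were lower in all 8 of these comparisons. Exons of these genes share their sequence with processed pseudogenes, so reads there may have been assigned to either copy and the exon values are uncertain.

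The pseudogenes themselves were poor in both marks. Of 1515 autosomal ribosomal protein pseudogenes, 123 (8.12%) had H3K18bu within 1 kb of their start in both replicates and 98 (6.47%) had H4K12bu. Both shares were below those of the members, at 43.2% and 14.8%.

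Other genes of translation are given for comparison. H3K18bu in both replicates was present at the start of 22 of 34 initiation factors (64.7%), 17 of 34 ribosome assembly genes (50.0%), 29 of 78 mitochondrial ribosomal protein genes (37.2%), 4 of 11 elongation and release factors (36.4%) and 3 of 10 regulators of the mTOR pathway (30.0%). For H4K12bu the counts were 10 (29.4%), 9 (26.5%), 16 (20.5%), 3 (27.3%) and 2 (20.0%). The members' 43.2% and 14.8% thus fell inside the range of these lists for H3K18bu and below all 5 of them for H4K12bu. The small lists moved with the start used: at the canonical start 7 of the 11 elongation and release factors had H3K18bu (63.6%), above the members' 45.7%. At the annotated start, EEF2 had no region in any library and EEF1A1 had one in H4K12bu replicate 1 alone. TPT1, an mRNA with the same pyrimidine start, had a region in all 4 libraries.

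In mouse intestine, regions were counted within 1 kb of either gene end, because the strand was known for only 60 of the 80 members. H4K12bu was found at more members than H3K18bu. H3K18bu was present at 22 and 24 of 80 members in the replicates (27.5% and 30.0%, beside 27.7% and 24.4% of other coding genes). H4K12bu was present at 41 and 63 members (51.2% and 78.8%, beside 32.6% and 46.9%). H3K18ac was present at 59 and 56 members (73.8% and 70%, beside 60.0% and 54.9%), and H4K12ac at 52 and 65 (65.0% and 81.2%, beside 54.6% and 64.2%). The members' share exceeded that of other coding genes in 7 of the 8 libraries, the exception being H3K18bu replicate 1. Beside coding genes in the members' range of length, that library too had the larger share at members, 27.5% against 21.9%. With a pileup of at least 2 the members were above other coding genes in 6 libraries, both of H4K12bu among them, and at q below 0.05 in 4.

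**Figure D4:**
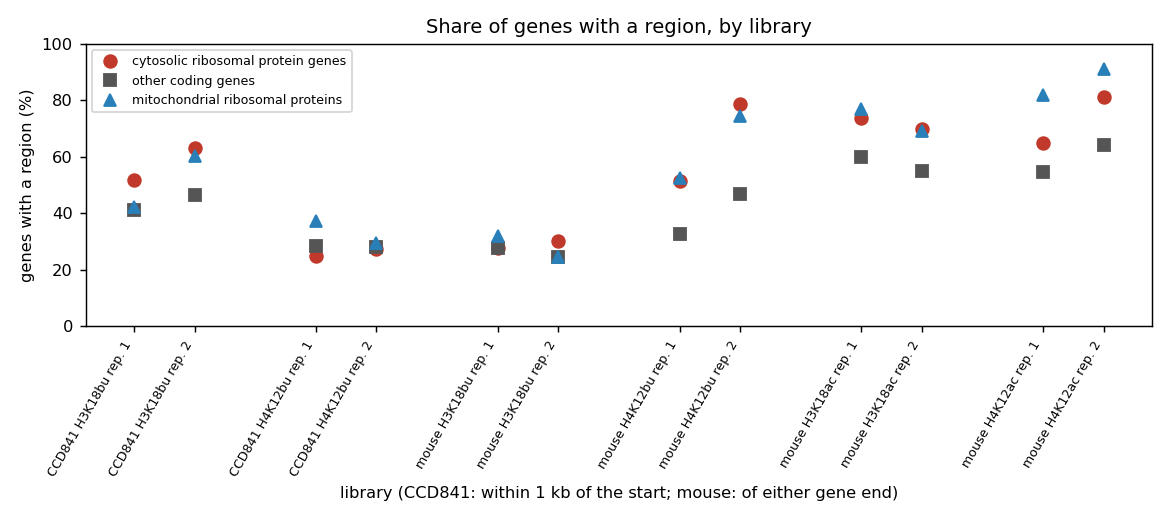
Percent of genes with a region in each library, for cytosolic ribosomal protein genes (red circles), other autosomal coding genes (grey squares) and mitochondrial ribosomal protein genes (blue triangles). In mouse H4K12bu the red circles lie at 51.2% and 78.8%, above the grey squares at 32.6% and 46.9%; in mouse H3K18bu replicate 1 they lie together.

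In both replicates at once, 8 members had H3K18bu (10.0%, beside 12.6% of other coding genes), 34 had H4K12bu (42.5%, beside 25.1%), 44 had H3K18ac (55.0%, beside 40.7%) and 43 had H4K12ac (53.8%, beside 43.3%). When each replicate had to hold 2 or more read ends, the shares were 1.25% beside 1.24% for H3K18bu, 3.75% beside 4.82% for H4K12bu, 30.0% beside 27.4% for H3K18ac and 53.8% beside 40.2% for H4K12ac. The count of members with H4K12bu in both replicates was then 3 and no longer above the background, while each replicate alone still had the larger share at members (11.2% beside 8.04%, and 30.0% beside 17.1%). Beside other coding genes within the members' range of length, the members' shares stood against 9.64%, 20.5%, 32.3% and 33.5% in the same order. For H4K12ac, small subunit genes had a region more often than large subunit genes, 20 of 29 against 18 of 43 (69.0% and 41.9%), and for H3K18ac 20 of 29 against 22 of 43 (69.0% and 51.2%). For H4K12bu the counts were 14 of 29 and 18 of 43 (48.3% and 41.9%). H3K18bu did not have this order: in single replicates 20.7% and 27.6% of small subunit genes had a region, beside 34.9% and 27.9% of large subunit genes. No test was made of the subunits, which were compared after their counts were known.

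For each mark, a smaller share of mouse members than of all other coding genes had a body region in both replicates. H3K18bu was present in the body of 1 member in both replicates (1.25%), Rpl38, beside 25.5% of other coding genes. H4K12bu was present in 8 (10.0%), beside 34.0%. Among other coding genes of the members' range of length, the shares were 4.16% and 7.74%. Only 65 members are long enough to have such a body, and among genes that are, H3K18bu was present in 1.54% of members, 28.7% of other coding genes and 5.68% of those in the length range, and H4K12bu in 12.3%, 38.2% and 10.6%. Among the same genes, H3K18ac was present in 10.8% of members, 60.4% of other coding genes and 22.5% of those in the length range. H4K12ac was present in 12.3%, 66.2% and 23.7%. In single libraries, the share of all members with a body region reached 21.25% in H4K12bu replicate 2 and 28.75% in H4K12ac replicate 2. The median length was 3179 bp for members and 17637 bp for other coding genes.

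The study set the Kbu libraries beside the Kac libraries. The mean share of members with a region at a gene end was 46.9% ± 23.8 (SD, n = 4) in the Kbu libraries and 72.5% ± 6.85 (SD, n = 4) in the Kac libraries, and the groups overlapped. The difference of -25.6 percentage points had p = 0.114 in a two-sided exact permutation test over 70 assignments, whose smallest possible p is 0.0286. This result depended on the peaks counted. The difference was -50.3 with a pileup of at least 2 and -21.6 at q below 0.05, both with exact permutation p = 0.0286, and 8.44 with p = 0.286 when every library was cut to the same number of strongest regions. With that pileup, 3.93% to 17.1% of other coding genes had a region in the Kbu libraries and 36.7% to 63.5% in the Kac libraries. At q below 0.05 these shares were 0.607% to 5.82% and 12.9% to 32.7%. Other coding genes thus separated the libraries as fully, and the p-values of 0.0286 are not particular to the members. The Kac lists held at least 299623 peaks each and the Kbu lists at most 96432, so the excess of members over other coding genes was compared as well. It was 13.97 ± 14.3 percentage points in the Kbu libraries and 14.1 ± 2.81 in the Kac libraries (SD, n = 4), a difference of -0.0858 with p = 1 in the same exact permutation test. By library, H3K18bu had an excess of -0.156 and 5.58 points, H4K12bu of 18.6 and 31.8, H3K18ac of 13.7 and 15.1, and H4K12ac of 10.4 and 17.0. Against all other coding genes, the H3K18bu libraries thus lay below and the H4K12bu libraries above the Kac libraries in points of excess. As a ratio of the members' share to that of other coding genes, H3K18bu replicate 2 (1.2285) lay within the Kac libraries (1.1895 to 1.275). Against coding genes in the members' range of length, the excess was 5.65 and 10.3 points for H3K18bu and 24.4 and 40.2 for H4K12bu, beside 22.0 and 24.2 for H3K18ac and 19.1 and 27.9 for H4K12ac, so that H4K12bu replicate 1 then lay within the Kac libraries. Without shallow regions the order of the H4K12 libraries depended on the scale. With a pileup of at least 2, the excess over all other coding genes was 3.21 and 12.9 points for H4K12bu, beside 14.7 and 17.7 for H4K12ac. As a ratio of the members' share to that of other coding genes, which was 8.04% and 17.1% for H4K12bu and 49.0% and 63.5% for H4K12ac, it was 1.399 and 1.75 for H4K12bu, beside 1.30 and 1.28. At q below 0.05 the excess was -2.10 and 2.93 points for H4K12bu, beside 4.52 and 9.77 for H4K12ac, and the ratio was 0 and 1.50, beside 1.35 and 1.30, so that the H4K12bu replicates lay on either side. The difference of Kbu and Kac in excess was -9.71 points with that pileup and -4.92 at that q, each with exact permutation p = 0.0571.

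The depth behind these mouse regions was small. Of the 8 members with H3K18bu in both replicates, 1 had at least 2 read ends in both, and of the 34 with H4K12bu, 3 had. The same counts were 24 of 44 for H3K18ac and 43 of 43 for H4K12ac. By replicate, 86.4% and 91.7% of members with an H3K18bu region had 1 read end, beside 82.0% and 83.9% of other coding genes with one. For H4K12bu these shares were 78.0% and 61.9%, beside 75.4% and 63.6%. They were 44.1% and 10.7%, beside 38.9% and 13.9%, for H3K18ac, and 1.92% and 0%, beside 10.3% and 1.08%, for H4K12ac. At q below 0.05 in both replicates there were 0, 0, 4 and 10 members in the same order of groups. Of other coding genes, 0.107% had H3K18bu and 1.04% H4K12bu at this threshold. The 4 members with H3K18ac (5.00%) then stood beside 5.78% of other coding genes, and the 10 with H4K12ac (12.5%) beside 9.23%. The 3 H4K12bu members were Rps27a, Rps14 and Rpl18, and Rpl18 was also the 1 for H3K18bu.

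**Figure D5:**
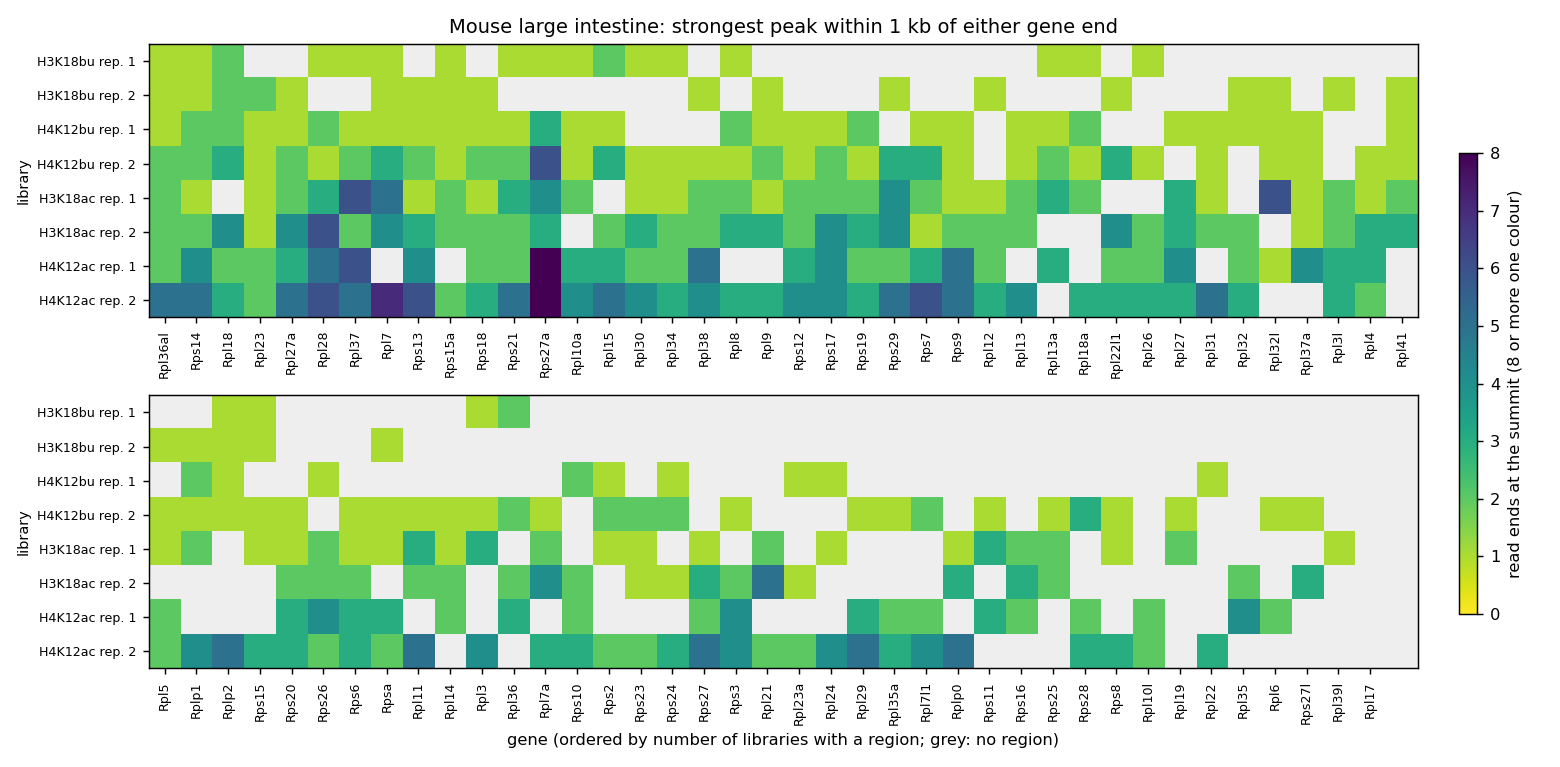
Read ends over the summit of the strongest peak within 1 kb of either gene end, for 79 of the 80 ribosomal protein genes (columns) in 8 mouse libraries (rows); grey means no region, and 8 or more share a colour. Most cells in the upper rows (H3K18bu, H4K12bu) stand for 1 read end, and the Rps27a column holds the highest values, 8 and 25, in H4K12ac.

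Rps27a, the ubiquitin fusion, carried the most read ends of the members. Its pileup was 3 and 6 in H4K12bu, 8 and 25 in H4K12ac, 4 and 3 in H3K18ac, and 1 read end in H3K18bu replicate 1, with no region in replicate 2. Its H4K12 values were high in both acyl groups and its H3K18bu values were at the floor. The genes Clhc1 and Mtif2 lie within 1 kb of it, so the region cannot be assigned to one of them. Rps14 had a region in all 8 libraries, with pileups of 1 and 1 in H3K18bu, 2 and 2 in H4K12bu, 1 and 2 in H3K18ac, and 4 and 5 in H4K12ac. Rpl36al, also present in all 8 libraries, had 1 and 1 in H3K18bu, 1 and 2 in H4K12bu, 2 and 2 in H3K18ac, and 2 and 5 in H4K12ac. In both genes the H4K12ac libraries together held the most read ends and H3K18bu the fewest. Rpl18, a large subunit gene, had 2 and 2 in H3K18bu, 2 and 3 in H4K12bu, none and 4 in H3K18ac, and 2 and 3 in H4K12ac. Rpl15 had H4K12bu pileups of 1 and 3, and Rplp2, the partner of Rplp1 in the stalk, had 1 in each of the 4 Kbu libraries. Across members, 7 had a region in all 4 Kbu libraries (8.75%, beside 7.60% of other coding genes) and 8 in none (10.0%, beside 37.6%). In all 4 Kac libraries 28 had one (35.0%, beside 26.4%), and 1 in none (1.25%, beside 13.9%). The member with no region at a gene end in any mouse library was Rpl17. Another coding gene overlaps or lies within 1 kb of 31 of the 80 members.

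Other genes of translation in mouse intestine stood around the members. Of 78 mitochondrial ribosomal protein genes, 8 had H3K18bu (10.3%), 34 H4K12bu (43.6%), 44 H3K18ac (56.4%) and 60 H4K12ac (76.9%) at a gene end in both replicates. These shares were close to those of the cytosolic members, except for H4K12ac, where the members had 53.8%. Of 33 initiation factors, 8 had H3K18bu (24.2%), 15 H4K12bu (45.5%), 20 H3K18ac (60.6%) and 22 H4K12ac (66.7%). Of 34 ribosome assembly genes, 5, 13, 20 and 24 had the marks in this order, of 11 elongation and release factors 1, 7, 6 and 7, and of 10 regulators of the mTOR pathway 2, 4, 6 and 6. No test was made between the lists.

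Between the species, 79 members share a symbol. Counted over these, 33 had H3K18bu at the start in CCD841 and 8 at a gene end in mouse intestine, and 4 were in both (RPL18, RPL36AL, RPS14 and RPS15), which is 12.1% of the human list and 50.0% of the mouse list. For H4K12bu, 11 and 33 members had a region and 7 were in both, among them RPL9, RPL37, RPL37A, RPLP1, RPS9 and RPS24, which is 63.6% of the human and 21.2% of the mouse list. Over 15306 other coding genes that share a symbol, the overlap was 19.4% of the human and 45.9% of the mouse list for H3K18bu, and 40.96% and 23.9% for H4K12bu. RPS3A and RPL26L1 have no mouse gene of the same symbol under this rule. The windows and depths differ between the species, so the shares are not compared further.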

How the data were processed

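CUT&Tag was performed on 12 libraries. Per the labels and the study's methods, the authors trimmed reads (cutadapt 1.9.1), aligned them (Bowtie2 2.3.1) to GRCh38 or GRCm38 and called peaks in each library without a control (MACS2 2.1.0, p 0.01, limit of 300000 peaks, blacklist removed). The deposited lists give a fold over the local background (a ratio) and −log10 of p and of q. They hold no read counts and the library depth is unknown. The pileup, in read ends extended by the caller, was solved here from the fold and the −log10 p within 0.01.

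Overlapping peaks were merged, and a gene was called where a region lay within 1 kb of its start (CCD841, GENCODE 44) or of either end (mouse, RefSeq) in both replicates. Body regions lay more than 1 kb inside. Intervals and exact permutation tests were handled with numpy 2.4.6 and pandas 2.3.3, and the Poisson tail used to solve the pileup with scipy 1.17.1. Both solver and tests were checked on simulated data. Promoters were read from the RefSeq table for mouse and from the GRCh38 genome for CCD841. Named genes were, by rule, for each butyryl mark the 4 members ranked first by the weaker replicate's −log10 p, the 4 highest of those in all 4 CCD841 libraries, those in all 8 mouse libraries, the first 12 with no CCD841 region, and anchors picked for their roles, and others were named after their values were seen. The members and lists were chosen with earlier results of these data known. Sex chromosomes were left out. Alternatives were q below 0.05, a window of 3 kb, a pileup of at least 2, the canonical start, the same place in both replicates, lists of equal length, other comparison genes, blocks and leaving out each replicate. Values of 1 named gene are not reported here.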

Additional observations from a re-analysis of the deposited data

Results flagged for a closer look

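The excess of members over other coding genes at mouse gene ends differed in direction between the residues. For H3K18, the Kbu libraries lay below the Kac libraries by -11.7 percentage points, and for H4K12 they lay above by 11.5 percentage points (2 libraries per mark), with every pair of libraries in the same direction within a residue when all other coding genes were the comparison. As a ratio of the shares with all peaks, H3K18bu was 0.994 and 1.2285, beside 1.2291 and 1.275 for H3K18ac. On that scale H3K18bu replicate 2 was level with H3K18ac replicate 1. For H4K12bu the ratio was 1.57 and 1.68, beside 1.19 and 1.27 for H4K12ac. Beside coding genes in the members' range of length, 1 pair of H4K12 turned, since H4K12bu replicate 1 had an excess of 24.4 points and H4K12ac replicate 2 of 27.9. With a pileup of at least 2 the Kbu libraries lay below for both residues, by -11.3 points for H3K18 and -8.17 for H4K12, and at q below 0.05 by -3.10 and -6.73. As a ratio of the shares, H4K12bu (1.399 and 1.75) lay above H4K12ac (1.30 and 1.28) with that pileup, and on either side of it at q below 0.05 (0 and 1.50, beside 1.35 and 1.30). With all peaks, the difference of these differences was 23.2 points, with p = 0.167 in an exact permutation test over 36 assignments whose smallest possible p is 0.0556. This design cannot reach 0.05, and the contrast was tested after it had been seen, so the test gives no verdict. The Kbu values rest mostly on regions of 1 read end, and acyl group, diet and list length cannot be told apart here.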

How the results depend on the processing

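The lists limit these results by depth: in the mouse Kbu lists 89.2% to 91.4% of peaks held 1 read end. The difference of Kbu and Kac in the members' share was -21.6 points at q below 0.05 and -50.3 with a pileup of at least 2 (both with exact permutation p = 0.0286, the smallest the test can give), and 8.44 (p = 0.286) with equal numbers of strongest regions. Other coding genes separated the Kbu from the Kac libraries as fully at both thresholds, so these p-values are not particular to the members. Without 1 library the difference in share lay between -36.3 and -19.2, and without H4K12bu replicate 2 it was -36.3 with exact permutation p = 0.0286. The difference in excess was -4.92 at q below 0.05 and -9.71 with a pileup of at least 2 (both with exact permutation p = 0.0571), 1.75 with 3 kb and 7.46 with equal numbers, and between -6.04 and 4.62 without 1 library, above 0 without H3K18ac replicate 2 (0.261), H3K18bu replicate 1 (4.62) or replicate 2 (2.71), or H4K12ac replicate 2 (0.906). The cause was not tested.

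The replicate block left both differences at -25.6 (p = 0.111, exact permutation) and -0.0858 (p = 1). The replicate numbers did not pair the libraries, with correlations of deviations between -0.0459 and 0.0249.

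Each share is followed by that of other coding genes under the same setting. With q below 0.05 the shares were 9.88% (12.2%) for CCD841 H4K12bu at the start, and 0% (0.107%), 0% (1.04%), 5.00% (5.78%) and 12.5% (9.23%) for mouse H3K18bu, H4K12bu, H3K18ac and H4K12ac. When 2 or more read ends were required, which was chosen for the shares after seeing the data, they were 1.25% (1.24%), 3.75% (4.82%) and 30.0% (27.4%) for mouse H3K18bu, H4K12bu and H3K18ac. With 3 kb they were 25.9% (29.3%), 21.3% (22.9%), 62.5% (38.0%), 86.3% (65.5%) and 80.0% (67.9%) for CCD841 H4K12bu and the 4 mouse groups. With regions at the same place they were 7.5% (6.92%), 35.0% (24.7%) and 28.8% (27.6%) for mouse H3K18bu, H3K18ac and H4K12ac, and with the start only 6.67% (10.2%) and 45.0% (32.5%) for mouse H3K18bu and H3K18ac. The canonical start gave 19.8% (17.1%) for CCD841 H4K12bu. With 1 replicate alone, shares in CCD841 were 51.9% to 63.0% (H3K18bu start), 18.5% to 21.0% (H3K18bu body), 24.7% to 27.2% (H4K12bu start) and 34.6% to 42.0% (H4K12bu body), and in mouse 27.5% to 30.0% (H3K18bu), 51.3% to 78.8% (H4K12bu), 70% to 73.8% (H3K18ac) and 65.0% to 81.3% (H4K12ac). Among 76 values of named genes, 42 moved beyond their replicate spread or were lost at q below 0.05, 32 with 3 kb and 39 with equal numbers of strongest regions.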
